A study of Mus musculus with 22 samples.

Results

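Tuft cells are rare chemosensory cells of the intestinal epithelium. They sense luminal metabolites through a taste-like cascade, in which a surface receptor acts through a G protein and phospholipase C to open the cation channel TRPM5. They release the cytokine IL-25 and leukotrienes, which act on group 2 innate lymphoid cells, and the IL-13 made by those cells in turn raises the number of tuft and goblet cells. The tuft cell genes described here are 9 of the 54838 genes counted in the series, chosen by name for their known roles, with earlier results of these data known. They are the lineage factor Pou2f3, the sensing genes Sucnr1, Gnat3 and Trpm5, the effector genes Il25 and Alox5, the receptor gene Il17rb and the marker genes Dclk1 and Siglecf.

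The 22 libraries are bulk RNA-seq of the ileum of mice labelled FVB/N (FVB/NJ in the study's methods), which the methods give as females of 8 to 14 weeks. The mice carried either the wild-type glucocorticoid receptor (GRWT) or, on both alleles, a point mutant that dimerises poorly (GRDim). Both genotypes came from intercrosses of heterozygous GRDim mice, and the mutation is carried by every cell of the body. Their drinking water was plain or held 25 mM ZnSO4 for 7 days, and the comparisons ask how zinc acts in each genotype. The series' own description also mentions dexamethasone, which no sample's labels do, so no group here is defined by it. GRWT on water and GRWT on zinc had 5 libraries each, and GRDim on water and GRDim on zinc had 6 each. The labels call 12 libraries ileum, for the whole washed tissue, and 10 IEC, for the epithelium scraped from the bowel wall.

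Those tissue labels did not follow the muscle content of the libraries, and whether labels were exchanged was not tested. Myh11, the smooth muscle myosin, was above 100 CPM, a unit in which each count is scaled by the total of its library, in 5 of the 12 ileum and in 7 of the 10 IEC libraries. The conditions were therefore compared apart in the 12 muscle-rich libraries, 3 per condition, and in the 10 muscle-poor libraries, with 2 per GRWT condition and 3 per GRDim condition. Library totals ran from 13149951 to 15620744 counts, and 3 counts, used here as the detection floor, were worth 0.192 to 0.228 CPM. Such floors cover counting error only. The labels do not say which libraries came from separate mice or which sequencing set each belonged to, so the p-values measure the spread between these libraries, and the part of the sequencing set was not tested.

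A pair of libraries stood apart. GRWT zinc ileum replicate 3, which is muscle-poor, held 11.7 CPM of the ileal bile acid binder Fabp6 against 8297 to 10866 CPM in the other 9 muscle-poor libraries. It held 4274 CPM of Lct, the lactase of the proximal small intestine, against at most 7.56 CPM in those 9. GRWT zinc ileum replicate 1, which is muscle-rich, held 298 CPM summed over 9 B cell and follicle genes, the highest sum of all 22 libraries. Where leaving out either turned the sign or call of a member's edgeR difference named here, the value without it is given. For tests of the other gene lists and for ratios between the sides, values without them are not given.

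Of the 9 tuft cell genes, 4 were over the floor in every muscle-rich library and 2 in every muscle-poor library. Il25 and Gnat3 never exceeded the floor in any library. Over all 22 libraries the raw counts summed to 927 for Dclk1, 675 for Il17rb, 640 for Trpm5, 581 for Alox5, 147 for Siglecf, 105 for Pou2f3, 40 for Sucnr1, 15 for Gnat3 and 2 for Il25. Per kilobase of exon the mean levels of the muscle-rich libraries ran from 0.77 CPM per kb for Alox5 and 0.603 for Il17rb, through 0.326 for Dclk1, 0.253 for Trpm5, 0.183 for Siglecf, 0.12 for Pou2f3 and 0.116 for Sucnr1, to 0.042 for Gnat3 and 0.005 for Il25. In the muscle-poor libraries the order was led by Il17rb at 0.57 and Trpm5 at 0.407 CPM per kb, while Alox5 lay at 0.066 and Dclk1 at 0.034. Dclk1 and Alox5 were the 2 of 7 members over the floor in some library whose sides did not overlap, beside 18.7% of the 20675 genes over the floor in some library.

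**Figure D1:**
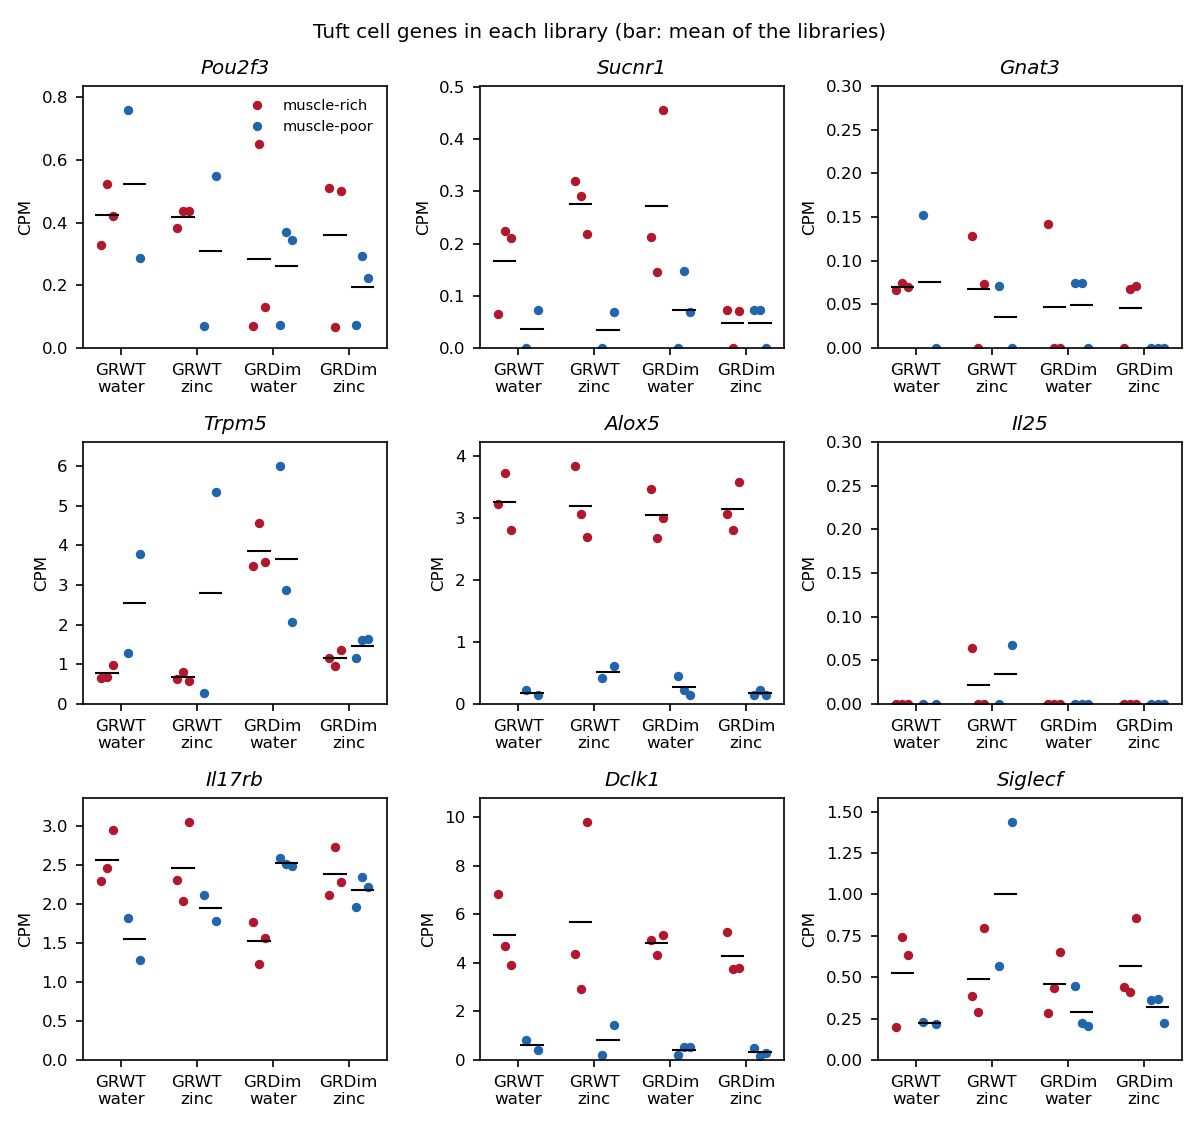
CPM (vertical axes) of the 9 tuft cell genes in each of the 22 libraries, by condition. Red points are muscle-rich and blue points muscle-poor libraries, and bars are means. Dclk1 and Alox5 separate by side in every condition, and Trpm5 stands at 3.47 to 4.56 CPM in the muscle-rich GRDim water libraries against at most 1.36 CPM in the other muscle-rich ones.

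For bases around the transcription start, RefSeq promoters of build GRCm38.p6 (250 bases before to 50 after the start) were matched for 7 of the 9 genes, all but Pou2f3 and Il25. Dclk1 has 2 starts in that table, whose windows begin at 55242114 and 55461478 on chromosome 3, and the gene counts add transcripts of both. The promoter of Trpm5 is shown because Trpm5 was the member called between conditions, and that of Sucnr1 because it held the octamer. The letters searched, on both strands, were the octamer ATGCAAAT that POU factors such as Pou2f3 recognise, the STAT-type palindrome TTCNNNGAA, the glucocorticoid receptor core AGAACA and the metal response cores TGCGCNC and TGCACNC. Capitals mark the octamer, and both sequences are written in the direction of the gene.
Trpm5: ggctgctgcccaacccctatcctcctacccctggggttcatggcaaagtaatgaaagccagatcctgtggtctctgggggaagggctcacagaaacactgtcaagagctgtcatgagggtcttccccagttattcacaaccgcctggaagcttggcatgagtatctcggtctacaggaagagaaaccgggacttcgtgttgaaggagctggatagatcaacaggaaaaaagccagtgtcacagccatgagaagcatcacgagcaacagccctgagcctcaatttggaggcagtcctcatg
Sucnr1: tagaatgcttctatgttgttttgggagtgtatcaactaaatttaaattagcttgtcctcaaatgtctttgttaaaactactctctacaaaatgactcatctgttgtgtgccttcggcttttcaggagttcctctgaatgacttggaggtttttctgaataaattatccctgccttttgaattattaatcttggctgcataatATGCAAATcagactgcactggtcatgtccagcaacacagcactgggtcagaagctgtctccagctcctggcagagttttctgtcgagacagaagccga
The Trpm5 window lies at chr7:143094593-143094892 on the minus strand and held none of these motifs. The Sucnr1 window lies at chr3:60081619-60081918 on the plus strand and held the octamer 48 bases before its start. Of 32851 promoters of the same length, 1.74% held the octamer, 8.3% the STAT-type palindrome and 3.44% the interferon-type pair. The glucocorticoid core was held by 19.0%, its palindrome by 0.009%, TGCGCNC by 15.4% and TGCACNC by 12.6%. Among the other members' windows the 1 match was TGCGCNC, 16 bases before the start of Gnat3. A match is a description of these letters and not of binding.

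Pou2f3 (chr9:43123939-43210369, minus strand, GRCm38 as all gene positions here), the POU-domain factor on which the tuft lineage depends, was low in every condition. It reached at most 10 counts in a library and was at or under the floor in 7 of 22 libraries. In the muscle-rich libraries it read 0.328, 0.522 and 0.421 CPM in GRWT water, 0.384, 0.437 and 0.436 CPM in GRWT zinc, 0.071, 0.651 and 0.13 CPM in GRDim water, and 0.512, 0.068 and 0.5 CPM in GRDim zinc. The conditions overlapped. In the muscle-poor libraries it lay between 0.071 and 0.76 CPM. It did not pass the low-count filter of either fit, so no test of it is given.

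Among the sensing genes, Sucnr1 (chr3:60081869-60087566, plus strand) encodes the succinate receptor and Gnat3 (chr5:17962549-18019834, plus strand) the G protein subunit gustducin. Sucnr1 was at or under the floor in 19 of 22 libraries and reached at most 7 counts, in GRDim water IEC replicate 6. In the muscle-rich libraries it read 1, 3 and 3 counts in GRWT water, 5, 4 and 3 in GRWT zinc, 3, 2 and 7 in GRDim water and 1, 0 and 1 in GRDim zinc. The GRDim zinc libraries held 2 counts in all against 12 in GRDim water, and 1 GRWT water library was as low as those of GRDim zinc. Counts this low do not settle a difference. Gnat3 had 0 counts in 10 of 22 libraries and at most 2 in the others. Neither gene passed the low-count filter of either fit, so no test of them is given.

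Trpm5 (ENSMUSG00000009246, chr7:143069153-143094642, minus strand), which encodes the cation channel that opens at the end of the cascade, was the member with called differences between conditions. In the muscle-rich libraries it read 0.657, 0.671 and 0.983 CPM in GRWT water, from 9 to 14 counts a library. GRWT zinc read 0.64, 0.801 and 0.582 CPM. GRDim water read 3.47, 4.56 and 3.58 CPM, from 49 to 63 counts a library. GRDim zinc read 1.17, 0.958 and 1.36 CPM. All 3 GRDim water libraries lay above the other 9 muscle-rich libraries, and the GRWT conditions overlapped each other.

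In the fit of the muscle-rich libraries Trpm5 was higher in GRDim than in GRWT mice on water, by 2.31 ± 0.25 on the log2 scale (SE, 3 libraries each, edgeR quasi-likelihood test, adjusted p = 6.66e-06). It was called, meaning an adjusted p under 0.05 and a log2 fold change beyond 0.8, as were 10.5% of the 15947 genes tested. With zinc in GRDim mice it fell by 1.70 ± 0.24 (edgeR adjusted p = 0.00102), in a comparison that called 1.33% of genes. These 2 comparisons share the GRDim water libraries. In GRWT mice the fitted difference with zinc was -0.18 ± 0.31 (edgeR adjusted p = 0.882). Between genotypes on zinc it was 0.79 ± 0.29 (edgeR adjusted p = 0.0724), and the interaction of zinc and genotype, the difference between both zinc effects, was -1.53 ± 0.39 (edgeR adjusted p = 0.0952). On the muscle-rich side the GRDim water libraries are all labelled IEC and the GRDim zinc libraries all ileum, and on the muscle-poor side the reverse, so zinc and tissue label in GRDim mice cannot be told apart within a side. With the tissue label as covariate over all 22 libraries the values were -1.42 for zinc in GRDim mice (edgeR adjusted p = 0.622) and 1.47 between genotypes on water (edgeR adjusted p = 0.281). That fit had no term for the muscle side, so it cannot separate zinc from the label within a side. The zinc effect on Trpm5 was also not shown to differ between genotypes at the adjusted threshold.

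The calls rest on few reads and on how the libraries are pooled. Leaving out each muscle-rich library in turn gave 2.18 to 2.53 for the genotype difference on water and -1.81 to -1.57 for zinc in GRDim mice, with the calls kept, but when all 22 libraries entered 1 fit with the muscle side as covariate the values were 1.39 (edgeR adjusted p = 0.0965) and -1.56 (edgeR adjusted p = 0.151). The zinc call was also not kept by DESeq2, which gave no adjusted p, nor in 1 fit of all 22 libraries with a mean for each condition and side. Trpm5 shares 220 exon bases with Tssc4 on the opposite strand, and the strand setting of the counting is not stated in the sources used here, so reads of the pair cannot be told apart there. Tssc4 was 0.38 ± 0.11 higher on the log2 scale in GRDim than in GRWT mice on water (edgeR adjusted p = 0.0095), below the fold threshold.

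The muscle-poor libraries, fitted apart, gave Trpm5 no called difference. It read 1.29 and 3.79 CPM in GRWT water, 0.282 and 5.34 CPM in GRWT zinc, 6.01, 2.88 and 2.07 CPM in GRDim water, and 1.17, 1.61 and 1.63 CPM in GRDim zinc. The 3 GRDim water libraries lay above the 3 GRDim zinc libraries, as on the muscle-rich side, while both GRWT conditions spread across the GRDim values. The fitted log2 differences were 0.41 ± 0.96 between genotypes on water (edgeR adjusted p = 0.996) and -1.29 ± 0.89 for zinc in GRDim mice (edgeR adjusted p = 0.819). Zinc in GRWT mice gave 0.59 ± 1.05 (edgeR adjusted p = 0.762), the genotypes on zinc gave -1.47 ± 0.99 (edgeR adjusted p = 0.372), and the interaction gave -1.88 ± 1.38 (edgeR adjusted p = 0.749). Without GRWT zinc ileum replicate 3 the signs of these last 3 turned, to -3.17, 2.30 and 1.89, with edgeR adjusted p of 0.366, 0.549 and 0.999. Without GRWT zinc ileum replicate 2 the genotypes on zinc and the interaction were called, at -2.46 and -2.87 (edgeR adjusted p = 0.00858 and 0.0205), beside 31.4% and 39.3% of all genes. Each of these 2 fits leaves 1 GRWT zinc library, replicate 2 in the first and replicate 3 in the second, which is assumed to vary like the others. In 1 fit of both sides with a mean for each condition and side and without replicate 3, zinc in GRDim mice was called on the muscle-poor side, at -1.30 ± 0.37 (edgeR adjusted p = 0.0322), beside 2.03% of all genes. The genotype difference on water was not shown to differ between the sides: muscle-rich less muscle-poor was 1.88 ± 0.99 (edgeR adjusted p = 0.491), and for zinc in GRDim mice it was -0.39 ± 0.94 (edgeR adjusted p = 1.0).

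**Figure D2:**
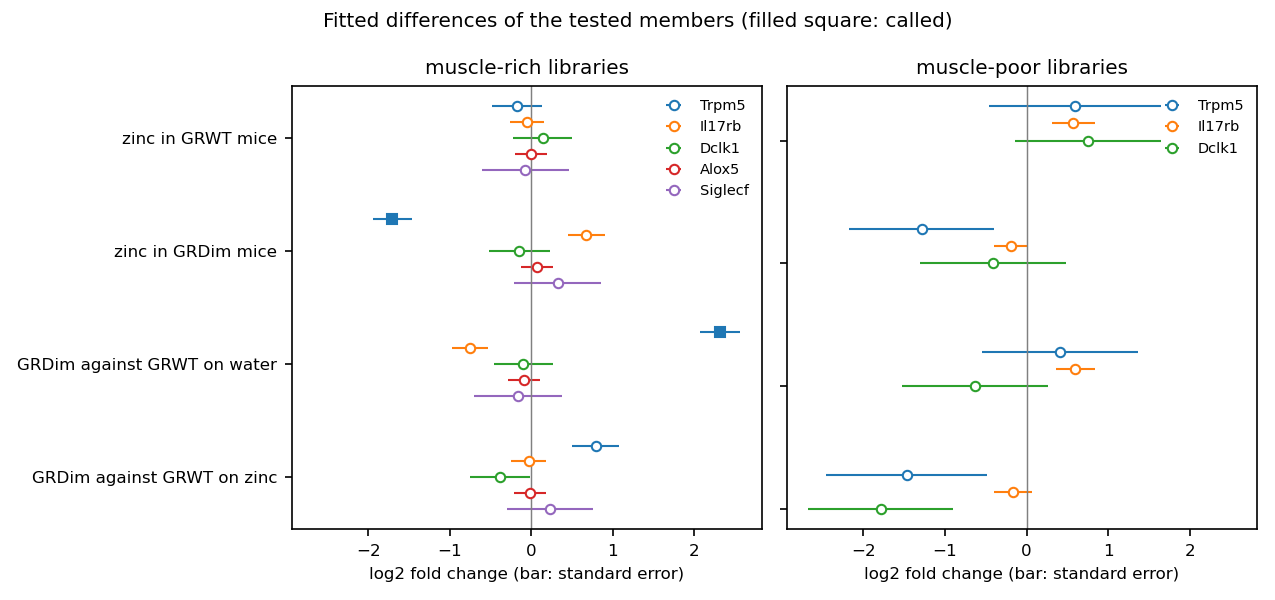
Fitted log2 fold changes (horizontal axis, bars are standard errors) of the members that passed the low-count filter, in 4 comparisons, for muscle-rich (left) and muscle-poor libraries (right). The filled squares mark the called values, Trpm5 at 2.31 for GRDim against GRWT on water and at -1.70 for zinc in GRDim mice.

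T cell genes were counted beside Trpm5. Of 10 T cell genes, a list drawn up after the values were seen, 10 of 10 rose in GRDim against GRWT mice on water on the muscle-rich side, beside 10.5% of all genes called, and 3 of 10 (Gzmb, Gzma and Cd8b1) fell with zinc in GRDim mice, beside 1.33%. Between genotypes on zinc, where Trpm5 was not called, 7 of 10 were higher, beside 4.4% of all genes. With zinc in GRWT mice and for the interaction edgeR called 0 of 10. All 10 were over the floor in every library. Their summed level was 111 to 166 CPM in GRWT water, 105 to 251 in GRWT zinc, 584 to 658 in GRDim water and 329 to 347 in GRDim zinc. Without GRWT zinc ileum replicate 1 the GRWT zinc sum reached at most 112 CPM. On the muscle-poor side 0 of 10 were called by edgeR or DESeq2, 4 passed unadjusted for zinc in GRDim mice, where 7.89% of all genes did, and 0 in the other comparisons, and the sums were 233 to 459, 168 to 331, 368 to 551 and 206 to 320 CPM in the same order. As a description, the log2 CPM of Trpm5 and of Cd3e, the T cell receptor subunit, had Pearson r = 0.806 over the 12 muscle-rich and r = 0.96 over the 10 muscle-poor libraries, or 0.959 without GRWT zinc ileum replicate 3. The 3 muscle-rich GRDim water libraries stand apart from the other 9 in both genes, and over those 9 r was 0.56. Cd3e was picked after its likeness to Trpm5 was seen, and within GRWT the order of the libraries differed: GRWT zinc ileum replicate 1 had the lowest muscle-rich Trpm5, at 0.582 CPM, with the highest GRWT muscle-rich Cd3e, at 9.6 CPM. Against Dclk1 and Pou2f3, Trpm5 gave r = -0.139 and -0.242 over the muscle-rich libraries and 0.336 and 0.221 over the muscle-poor ones. The points of each r share libraries and depth, and the part of T cells in the Trpm5 level was not tested. In bulk tissue, fewer cells of a type and less RNA per cell cannot be told apart.

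**Figure D3:**
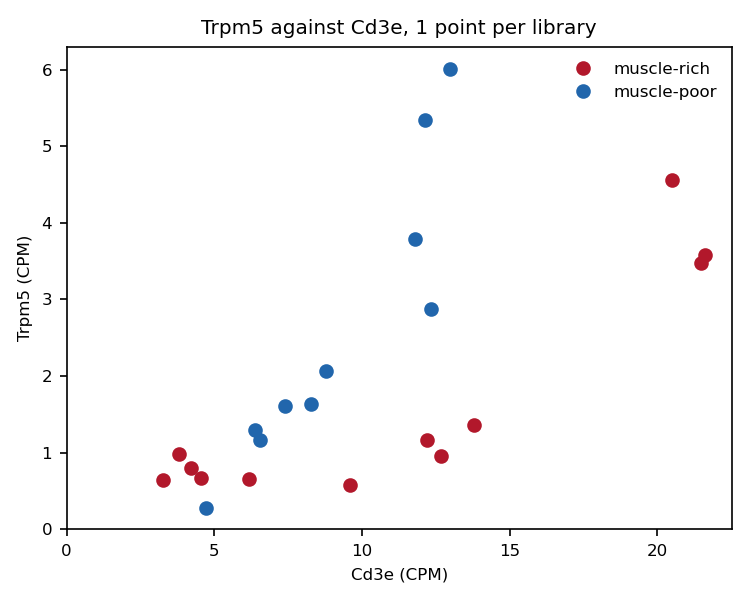
Trpm5 (vertical axis, CPM) against Cd3e (horizontal axis, CPM), 1 point per library, red for muscle-rich and blue for muscle-poor. The 10 muscle-poor libraries lie along a rising line (r = 0.96 on the log2 scale), and the 3 muscle-rich GRDim water libraries stand apart at 20.5 to 21.6 CPM of Cd3e.

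Of the genes with a mean of at least 1 CPM, those whose log2 CPM was most like that of Trpm5 over the 12 muscle-rich libraries were led by Plet1, an epithelial surface protein gene, at r = 0.987, then Ubxn8 at 0.98, Spcs1 at 0.968 and Tmprss4 at 0.968. Over the 10 muscle-poor libraries they were led by Fam214b at 0.967 and Cd3e at 0.96, and Plet1 gave 0.55. Over the 9 muscle-rich libraries other than GRDim water, Trpm5 and Plet1 gave 0.901. For the mean of Dclk1, Trpm5 and Pou2f3, with the mean of each side and condition taken off, the closest genes over 22 libraries were Tor1a at 0.931, Dusp16 at 0.925, Dennd3 at 0.924 and Il33, an alarmin of type 2 immunity, at 0.922. Without GRWT zinc ileum replicate 3, 0 of those 10 closest genes remained among the closest 10, which were then led by Meox1 at 0.892. The likeness to that mean therefore rested on 1 library, and the likeness to Trpm5 alone was computed after its values were seen.

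The effector gene Il25 (chr14:54932695-54935837, plus strand), the cytokine that starts the type 2 circuit, gave 1 count in GRWT zinc IEC replicate 4, 1 count in GRWT zinc ileum replicate 3 and 0 in the other 20 libraries. A count of 0 allows up to 0.192 to 0.228 CPM, depending on the library, so a difference between conditions was not detectable at this depth. Of 13 genes of type 2 lymphoid cells, their cytokines and receptors, Il13, Il5, Il9 and the decoy receptor Il13ra2 did not exceed the floor in any library. On the muscle-rich side 8 of the 13 were tested, and 0 were called by edgeR in any of the 5 comparisons, beside 0.163% to 10.5% of all genes called. From 0 to 5 passed at an unadjusted p under 0.05, beside 11.5% to 47% of all genes. DESeq2 called 1, the IL-33 receptor gene Il1rl1, between genotypes on zinc.

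Alox5 (ENSMUSG00000025701, chr6:116410077-116461178, minus strand), the 5-lipoxygenase that starts leukotriene synthesis, differed with the muscle side. It read 2.68 to 3.84 CPM over the 12 muscle-rich libraries and 0.138 to 0.616 CPM over the 10 muscle-poor ones, so the sides did not overlap, and the ratio of means was 11.6. By condition the muscle-rich means were 3.25 ± 0.46 CPM in GRWT water, 3.20 ± 0.59 in GRWT zinc, 3.05 ± 0.40 in GRDim water and 3.15 ± 0.39 in GRDim zinc (SD, n = 3). These differed by less than the spread between libraries. Macrophage genes moved with the side as well. The summed level of 12 macrophage and neutrophil genes was 246 to 465 CPM in the muscle-rich and 15.7 to 27.4 CPM in the muscle-poor libraries, with Cxcr2 and S100a8 not over the floor in any library. Within the muscle-rich side it was 246 to 318 CPM in GRWT water and 435 to 465 CPM in GRDim water, where 2 of the 9 tested (Retnlg and Csf3r) rose against GRWT water, beside 10.5% of all genes called. Csf1r, the macrophage growth factor receptor, had means of 51.1 and 2.35 CPM. Within the muscle-rich libraries the log2 CPM of Alox5 and Csf1r had r = 0.189. The part of macrophages in the Alox5 level was not tested.

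Il17rb (ENSMUSG00000015966, chr14:29996135-30008896, minus strand) encodes the receptor subunit for IL-25, and tuft cells carry it as well. In the muscle-rich libraries it read 2.30, 2.46 and 2.95 CPM in GRWT water, 2.31, 2.04 and 3.05 CPM in GRWT zinc, 1.77, 1.23 and 1.56 CPM in GRDim water and 2.12, 2.74 and 2.29 CPM in GRDim zinc. All 3 GRDim water libraries lay below the other 9. The difference between GRDim and GRWT mice on water was -0.75 ± 0.22 on the log2 scale (edgeR adjusted p = 0.0154), which passes the adjusted threshold but not the fold threshold, and was not called. With zinc in GRDim mice it was 0.67 ± 0.23 (edgeR adjusted p = 0.0849). Without GRDim water IEC replicate 4 or without GRWT water IEC replicate 4 the genotype difference was called, at -0.88 (edgeR adjusted p = 0.0196) and -0.84 (edgeR adjusted p = 0.0204), and over all single libraries left out the edgeR adjusted p ran from 0.0119 to 0.0695.

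On the muscle-poor side the order was turned. Il17rb read 1.83 and 1.29 CPM in GRWT water against 2.60, 2.51 and 2.49 CPM in GRDim water. GRWT zinc read 2.12 and 1.78 CPM, and GRDim zinc 1.97, 2.35 and 2.22 CPM. The genotype difference on water was 0.60 ± 0.24 (edgeR adjusted p = 0.838), in a comparison that called 0.0288% of genes. In 1 fit of all 22 libraries, the muscle-rich less the muscle-poor difference was -1.37 ± 0.31 (edgeR adjusted p = 0.0327), in a test that 215 of 16389 genes passed. Il17rb shares 141 exon bases with Actr8 on the opposite strand, and Actr8 differed by -0.07 ± 0.08 between genotypes on water on the muscle-rich side (edgeR adjusted p = 0.485).

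Dclk1 (ENSMUSG00000027797, chr3:55242364-55539068, plus strand), the microtubule-associated kinase used to mark tuft cells, read 2.91 to 9.82 CPM over the muscle-rich libraries and 0.147 to 1.44 CPM over the muscle-poor ones. The sides did not overlap, and the ratio of means was 9.66. In the muscle-rich libraries GRWT water read 6.83, 4.70 and 3.93 CPM, GRWT zinc 4.35, 2.91 and 9.82 CPM, GRDim water 4.96, 4.34 and 5.14 CPM, and GRDim zinc 5.26, 3.76 and 3.79 CPM. All 4 conditions overlapped, and the highest value came from GRWT zinc ileum replicate 1, the library with the most B cell transcript. Enteric neurons, which also express Dclk1, moved with the side. The summed level of 13 enteric neuron and glia genes was 43.6 to 90.6 CPM in the muscle-rich and 3.51 to 25.0 CPM in the muscle-poor libraries. Elavl4, a neuronal RNA-binding protein gene, had means of 3.51 and 0.123 CPM, and Uchl1 6.27 and 0.174 CPM. In the muscle-poor libraries 7 of the 13, Gfap, Tubb3 and Vip among them, never exceeded the floor. Between genotypes on water on the muscle-rich side 4 of the 13, S100b and Vip among them, fell, beside 10.5% of all genes called. Their part in the Dclk1 level was not tested. Within the muscle-rich libraries the log2 CPM of Dclk1 and Elavl4 had r = 0.375.

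In the muscle-poor libraries Dclk1 was near the floor, at 0.837 and 0.429 CPM in GRWT water, 0.212 and 1.44 CPM in GRWT zinc, 0.222, 0.516 and 0.552 CPM in GRDim water and 0.51, 0.147 and 0.296 CPM in GRDim zinc. The log2 difference with zinc in GRWT mice was 0.75 ± 0.90 (edgeR adjusted p = 0.644), and that between genotypes on zinc was -1.79 ± 0.89 (edgeR adjusted p = 0.255). Both turned sign without GRWT zinc ileum replicate 3, to -1.56 and 0.53, with edgeR adjusted p of 0.637 and 0.875. Both were called without GRWT zinc ileum replicate 2, at 1.71 and -2.75 (edgeR adjusted p = 0.033 and 0.00218), beside 30.1% and 31.4% of all genes, in a fit whose only GRWT zinc library was replicate 3.

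Siglecf (chr7:43351341-43359531, plus strand), a sialic acid-binding lectin gene of intestinal tuft cells and eosinophils, read 0.197 to 0.858 CPM in the muscle-rich and 0.207 to 1.44 CPM in the muscle-poor libraries. Its highest value, 21 counts, came from GRWT zinc ileum replicate 3. Among 11 eosinophil genes, the granule genes Prg2, Prg3 and Ear6 did not exceed the floor in any library, and the summed level was 19.5 to 31.4 CPM in the muscle-rich and 4.91 to 13.01 CPM in the muscle-poor libraries. The chemokine gene Ccl11 carried that difference, with means of 13.13 and 0.029 CPM, while Epx, the eosinophil peroxidase, had means of 0.259 and 0.43 CPM. Over the 5 muscle-rich comparisons the fitted log2 differences of Dclk1, Alox5 and Siglecf were at most 0.40 in size. Over the alternative fits they reached 1.09 in size. Of these 15 differences 15 changed sign in some alternative and 0 were called.

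The tuft cell genes of the wider list did not share 1 ratio between the sides. The means of the cyclooxygenase genes Ptgs1 and Ptgs2 were 23.9 and 44.0 times higher in the muscle-rich libraries, and the sides did not overlap. That of the actin regulator Avil was 1.45 times higher, with overlap. Among the neuronal genes, Ret was 1.54 times higher and its sides overlapped.

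**Figure D4:**
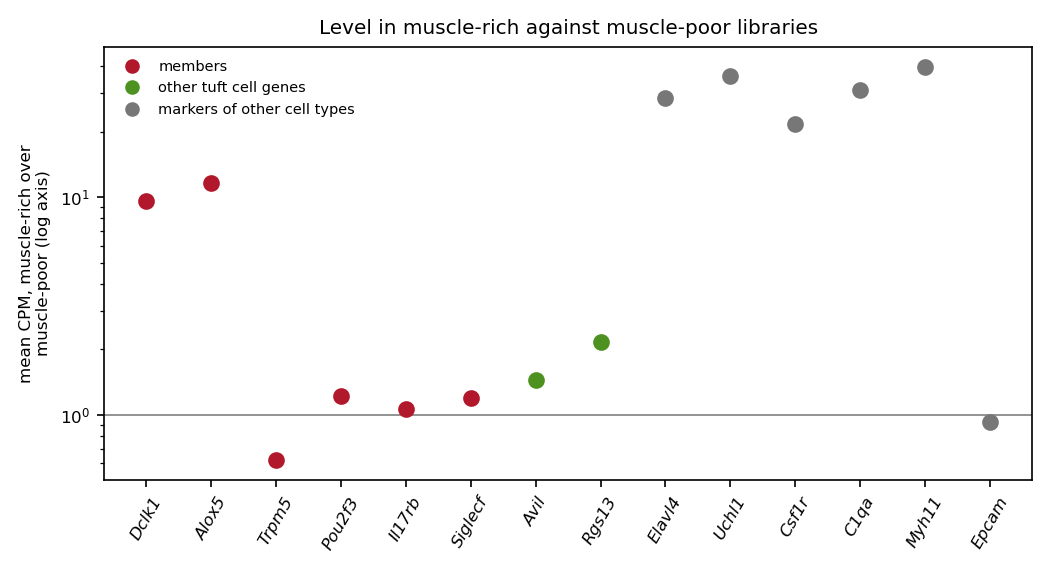
Ratio of the mean CPM of the 12 muscle-rich to that of the 10 muscle-poor libraries (vertical log axis) for members (red), other tuft cell genes (green) and markers of other cell types (grey). Dclk1 lies at 9.66 and Alox5 at 11.6, below Csf1r at 21.8 and Uchl1 at 36.0, while Pou2f3 at 1.22, Il17rb at 1.06, Siglecf at 1.19 and Epcam at 0.93 stand near 1 and Trpm5 lies at 0.62. The Siglecf ratio includes GRWT zinc ileum replicate 3, at 1.44 CPM against at most 0.565 CPM in the other 9 muscle-poor libraries.

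Over the 9 members, 5 were tested on the muscle-rich side (Dclk1, Trpm5, Il17rb, Alox5 and Siglecf) and 3 on the muscle-poor side (Dclk1, Trpm5 and Il17rb). A member that passes the filter only where it is high had to differ, so the counts below describe those tested. On the muscle-rich side 1 of 5 was called higher in GRDim against GRWT on water and 1 of 5 lower with zinc in GRDim mice, in both cases Trpm5, beside 10.5% and 1.33% of all genes. In each of the pair Trpm5 and Il17rb passed at an unadjusted p under 0.05, beside 47% and 22.7% of all genes. DESeq2 called 1 member for the first and 0 for the second, where it gave Trpm5 no adjusted p. With zinc in GRWT mice 0 of 5 were called by edgeR, 0 by DESeq2 and 0 at an unadjusted p under 0.05, beside 0.163% of all genes called and 11.5% passing unadjusted. Between genotypes on zinc 0 were called by either tool and 1 passed unadjusted, beside 4.4% of all genes called and 32.1% passing unadjusted. For the interaction 0 were called by either tool and 2 passed unadjusted, beside 0.263% of all genes called and 15.5% passing unadjusted. The medians of the 5 tested members lay between -0.10 and 0.08 on the log2 scale.

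On the muscle-poor side 0 of 3 were called by edgeR or DESeq2 in any comparison. The share of all genes called by edgeR was as low, at 0.0431% of 13908 genes for zinc in GRWT mice, 0.0575% for zinc in GRDim mice, 0.0288% between genotypes on water, 0.0575% between genotypes on zinc and 0% for the interaction. DESeq2 called 452 of 13487 genes for zinc in GRWT mice and 747 of 12980 between genotypes on zinc. Unadjusted, Il17rb passed between genotypes on water and for the interaction, where 5.63% and 4.66% of all genes did, and no member passed in the other 3 comparisons.

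A wider list of 49 tuft cell genes, drawn from general knowledge of the cell type, held 48 in the file. Of these, 34 were tested on the muscle-rich and 29 on the muscle-poor side. In GRDim against GRWT mice on water on the muscle-rich side 4 of 34 rose and 0 fell, beside 10.5% of all genes called, and the median log2 difference over the 34 was 0.09. The 4 were Pik3cg (1.48 ± 0.29, edgeR adjusted p = 0.00227) and Pik3r5 (0.82 ± 0.29, edgeR adjusted p = 0.0384), subunits of a phosphoinositide 3-kinase, the adaptor Fyb (1.45 ± 0.24, edgeR adjusted p = 0.000614) and the exchange factor Vav1 (1.30 ± 0.30, edgeR adjusted p = 0.00699). The 4 of 34 lie near the share of all genes. All 4 are also leukocyte genes, whose part in these values was not tested. Unadjusted, 19 of the 34 passed in that comparison, beside 47% of all genes, and DESeq2 called the same 4 and Inpp5d. In the other 9 comparisons 0 genes of the list were called by edgeR and 1 to 7 passed unadjusted, beside 4.66% to 32.1% of all genes. DESeq2 called Rgs13 between genotypes on zinc on the muscle-rich side, and Trim38 with zinc in GRWT mice and between genotypes on zinc on the muscle-poor side. Rgs13 read 5.09 CPM in GRWT zinc ileum replicate 1 against at most 1.19 CPM in the other 11 muscle-rich libraries, and 409 of the 448 muscle-poor counts of Trim38 came from GRWT zinc ileum replicate 3. DESeq2 was not run without these libraries for the list. Gnb3, Gng13, Gfi1b, Ly6g6d and Ly6g6f, which are also used as tuft cell genes, did not exceed the floor in any library.

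Epithelial genes that respond to IL-13 were counted beside them. In GRDim against GRWT mice on water on the muscle-rich side, which called 10.5% of all genes, 3 of 10 rose, namely Sprr2a3 (2.63 ± 0.27, edgeR adjusted p = 0.000116), Sprr2a1 (1.58 ± 0.19) and Pla2g4c (1.57 ± 0.21). The antimicrobial ribonuclease gene Ang4 differed by -1.63 ± 0.28 (edgeR adjusted p = 0.00194), and the median over the 10 was -0.34. The mast cell protease genes Mcpt4 (2.81 ± 0.58), Mcpt1 (2.37 ± 0.45) and Mcpt2 (2.00 ± 0.37) and Cpa3 (1.94 ± 0.44) rose, being 4 of the 6 mast cell genes tested, of 10 listed. The eosinophil list had 1 gene higher, Alox15 (2.26 ± 0.33), and 1 lower, the IL-5 receptor gene Il5ra at -4.19 ± 0.36 (edgeR adjusted p = 5.38e-06). Between genotypes on zinc the same 3 IL-13 targets, Alox15 and Mcpt4 were called higher and Ang4 and Il5ra lower, beside 4.4% of all genes. With zinc in GRDim mice Il5ra differed by 2.53 ± 0.39 and Alox15 by -1.38 ± 0.31, beside 1.33% of all genes called. For the interaction Il5ra was called, at 2.93 ± 0.48, beside 0.263% of all genes. On the muscle-poor side, in GRDim against GRWT mice on water, 10 IL-13 targets, 5 mast cell and 5 eosinophil genes were tested. By edgeR 0 of them were called, beside 0.0288% of all genes. Unadjusted, 1 IL-13 target, 4 mast cell and 2 eosinophil genes passed, beside 5.63% of all genes, while DESeq2 called Alox15, Cpa3, Mcpt1 and Mcpt2. There the median of the 5 mast cell genes tested was -2.73, opposite in sign to the 1.97 of the 6 tested on the muscle-rich side, and between genotypes on zinc it was -3.26, with Mcpt1 lower (-3.30 ± 0.41, edgeR adjusted p = 0.0412).

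GRWT zinc ileum replicate 3 stood at an end of the muscle-poor range for many tuft cell genes, as it did for most of all genes. Of the 6 members over the floor in some muscle-poor library, 3 were highest there: Dclk1 at 1.44 CPM against at most 0.837 CPM in the other 9, Siglecf at 1.44 against 0.565 CPM, and Alox5 at 0.616 against 0.445 CPM. Of 40 genes of the wider list over the floor, 12 or 30.0% peaked in that library, as did 13.3% of all genes over the floor. Another 12 of the 40 were lowest there, as were 54.6% of all genes, among them the taste receptor subunit Tas1r3 at 0.822 CPM against 1.92 to 2.92 CPM and the calcium channel Itpr3 at 81.1 CPM against 171 to 252 CPM. Sh2d6, an adaptor of tuft cells, read 1.99 CPM against at most 0.353 CPM in the other 9, and the leukotriene C4 synthase Ltc4s read 3.08 CPM against 0.367 CPM. The kinase Bmx read 1.30 CPM against 0.358 CPM, and Rgs13 read 1.85 against 0.706 CPM. Pou2f3, at 0.548 CPM, and Trpm5, at 5.34 CPM, lay within the range of the others on the CPM scale. The TMM factor of the library was 0.641, against 0.909 to 0.986 in the other 9, and on the TMM scale Trpm5 was 8.33 against at most 6.23 and Pou2f3 0.855 against at most 0.836. On that scale 6 of the 6 members and 20 of the 40 genes were highest there, as were 30.4% of all genes. Another 10 of the 40 were lowest there on that scale, as were 32.3% of all genes. On the CPM scale Csf1r at 2.60 CPM lay within the range of the others, and on the TMM scale it lay above it, at 4.06 against at most 3.85. The pan-leukocyte gene Ptprc lay within the range on both scales, at 31.3 CPM and 48.8 TMM-scaled CPM, and Epcam lay below it on both, at 1639 CPM against 2761 to 3177 CPM. The library has no second one of its kind, so its tuft cell genes and its segment genes cannot be told apart.

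**Figure D5:**
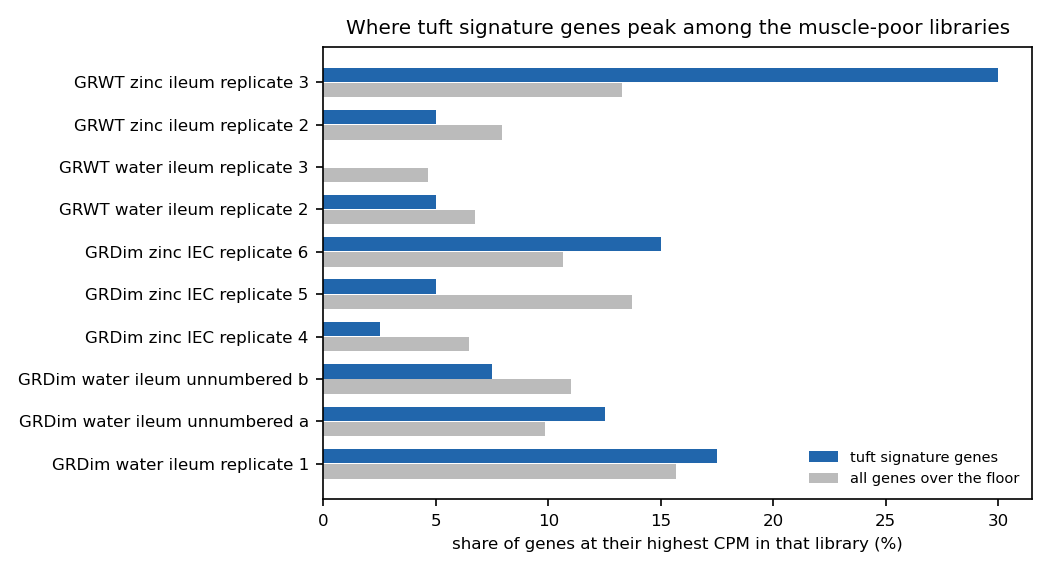
Share of genes (horizontal axis, %) whose highest CPM among the 10 muscle-poor libraries falls in each library, for 40 tuft signature genes (blue) and all genes over the floor (grey). GRWT zinc ileum replicate 3 holds 30.0% of the tuft signature peaks against 13.3% of all genes.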

How the data were processed

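Raw read counts per gene were deposited by the authors, without normalization. Per their methods and processing notes, stranded single-end libraries were mapped to mm10 with HISAT2 2.0.4 and counted with featureCounts, leaving out multimapping reads. The strand setting is not given in the sources used here. Columns were matched to samples by title; 1 name occurs on both of the remaining GRDim water ileum columns, which are called unnumbered a and b. Gene names and exon lengths came from GENCODE vM21. CPM used library totals. Tests used edgeR 4.0.16 in R 4.3.3 (TMM, filterByExpr, robust quasi-likelihood fit of the 4 condition means), apart for 12 muscle-rich (Myh11 above 100 CPM) and 10 muscle-poor libraries, with Benjamini-Hochberg adjustment over all genes tested. Standard errors (SE) were derived from the F statistic. Genes were called at an adjusted p under 0.05 and a log2 fold change beyond 0.8 (interaction: adjusted p alone). Likeness was Pearson r of log2(CPM + 0.5). The fit was tested on simulated data. Libraries of a condition and side differed by more than sampling noise (chi-square per gene at least 4.47). The named genes were the 9 members, up to 6 called genes of each other list, markers where they bear on a member, and the closest genes. Members and lists were chosen with earlier results of these data known, and the T cell and B cell lists after seeing these values. Alternatives were DESeq2 1.42.0, its size factors in edgeR, no filter, joint fits, a replicate block and leaving out libraries.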

Additional observations from a re-analysis of the deposited data

Results flagged for a closer look

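The difference of Il17rb between GRDim and GRWT mice on water was -1.37 ± 0.31 on the log2 scale when the muscle-poor value was taken from the muscle-rich one (edgeR adjusted p = 0.0327), and drew attention because the test of that difference itself passed the threshold. Of the 16389 genes in that test 215 passed, and it was run on all 22 libraries only. The effect was -0.75 on the muscle-rich and 0.60 on the muscle-poor side, neither of them called. The sides are not groups of the study but a split by Myh11. No group of condition and side holds 4 or more libraries, so single libraries were not tested as outliers.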

How the results depend on the processing

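The Trpm5 calls kept their direction in all alternatives run, but not their threshold. In GRDim mice the zinc difference of the muscle-rich libraries was -1.71 by DESeq2 (unadjusted p = 2.87e-06, adjusted p NA), so 0 members were called. With 1 fit of all 22 libraries and a mean for each condition and side it was -1.68, with the muscle side as covariate -1.56 and with the tissue label -1.42, again with 0 members called. The genotype difference on water was 1.39 and 1.47 under these last 2 fits, with 0 called. The cause was not tested. In these last 2 fits Trpm5 changed sign with zinc in GRWT mice, to 0.27 and 0.40, and between genotypes on zinc, to -0.44 and -0.35, while Il17rb on water read -0.14 and -0.10 against 0.60 on the muscle-poor side.

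The fit of all 22 libraries with a mean for each condition and side called 1 member (Siglecf) for zinc in GRWT mice and 2 (Alox5 and Siglecf) between genotypes on zinc on the muscle-poor side, beside 5.83% and 7.84% of all genes. The filter of the muscle-poor fit had left both genes out. In the same fit without GRWT zinc ileum replicate 3, which holds the highest muscle-poor value of both, neither was called and the only muscle-poor call was Trpm5 for zinc in GRDim mice (1 member, -1.30, adjusted p = 0.0322, beside 2.03% of all genes), and the muscle-rich Trpm5 calls were kept at -1.69 and 2.31. Added after seeing the data, that fit gave Trpm5 on the muscle-poor side -3.20 with zinc in GRWT mice, 2.32 between genotypes on zinc and 1.90 for the interaction, and Dclk1 -1.58 with zinc in GRWT mice and 0.55 between genotypes on zinc.

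Replicate numbers did not pair libraries: of 11 same-numbered pairs, 1 had a correlation of deviations over 0.1 (range -0.11 to 0.157). With the replicate block, in 1 fit of the numbered libraries of both sides, 1 member (Trpm5) was called for zinc in GRDim mice at -2.15 and between genotypes on water at 2.24, beside 1.42% and 6.1% of all genes. Trpm5 was 0.007 with zinc in GRWT mice and 0.079 between genotypes on zinc, and Il17rb was -0.33 on water.

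Leaving out single libraries moved the members called from 1 to 2 between genotypes on water on the muscle-rich side. Among muscle-poor libraries it moved them from 0 to 2 for zinc in GRWT mice, from 0 to 3 between genotypes on zinc and from 0 to 2 for the interaction, each through GRWT zinc ileum replicate 2. Trpm5 ranged from -0.33 to 0.041 with zinc in GRWT mice on the muscle-rich side. In the muscle-poor fit it ranged from -3.17 to 1.58 with zinc in GRWT mice, -0.15 to 1.39 between genotypes on water, -2.46 to 2.30 between genotypes on zinc and -2.87 to 1.89 for the interaction. Dclk1 ranged from -1.56 to 1.71 and from -2.75 to 0.53 on zinc, and Il17rb on water, muscle-rich, from -0.88 to -0.63. Of 25 other fitted differences, 22 changed sign in some alternative and 0 were called. Over all genes, the calls of the alternatives ranged from 224 to 1829 between genotypes on water on the muscle-rich side against 1673, from 18 to 842 on zinc against 702, from 12 to 304 for zinc in GRDim mice against 212, from 12 to 37 for zinc in GRWT mice against 26 and from 0 to 346 for the interaction against 42. On the muscle-poor side the ranges were 2 to 964 against 4, 3 to 4551 against 8, 3 to 343 against 8, 2 to 4365 against 6 and 0 to 5702 against 0, the upper ends on zinc, for zinc in GRWT mice and for the interaction being those without GRWT zinc ileum replicate 2. TMM-scaled CPM moved 7 of 72 group means beyond 1 SD. With at most 10 counts a library for Pou2f3, 7 for Sucnr1 and 2 for Gnat3, depth limits these genes.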
